A study of Homo sapiens with 24 samples.

Results

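The last 6 libraries of a K562 time series were compared in 2 windows: 36, 38 and 40 h after elutriation, the middle of the second cycle, against 42, 44 and 46 h, the end of the culture. The members were taken from the time point in the sample labels, and they are 6 of the 24 libraries of the series. K562 is an established human leukaemia cell line that grows in suspension and keeps erythroid features. Cells grown in RPMI with 10% bovine calf serum and penicillin and streptomycin (P/S in the labels) were synchronized by centrifugal elutriation, which separates cells by size, and were sampled every 2 h from 0 to 46 h for RNA sequencing of total RNA. All libraries share the line, the medium and the elutriation, no other agent is named, and the windows differ only in time. There was 1 library per time point from 1 line, and no sample label names a replicate culture or a change of medium. The libraries of a window are therefore consecutive time points and not replicates, and every p-value below rests on the spread among such time points. In the tests between windows and between days, that spread includes any change inside a window. In the fit of a straight line on time, it is the departure from that line.

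A cell that runs short of amino acids, or whose protein folding is disturbed, phosphorylates the initiation factor eIF2. General translation then slows while the transcription factor ATF4 is made, and ATF4 turns on genes for amino acid uptake, serine and asparagine synthesis and redox balance. This integrated stress response is known in cultured cells as nutrients are used up. Progress through the cycle leaves its own mark in RNA: histone genes are expressed with DNA synthesis, and the mitotic genes, such as those for cyclin B1 and PLK1, peak before and during division. Ribosome assembly in the nucleolus and the cytosolic chaperones of the HSP70 family follow growth and protein load.

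Values are FPKM, fragments scaled by transcript length and library total, so levels can be set side by side between genes. Their depth is unknown. Differences between windows are on the log2(FPKM + 1) scale, are given as culture end minus middle, and understate the change of low genes. Of the 12155 genes tested, the library at 46 h stood apart from the others. It held 338 genes (2.78%) at least 1.5-fold above the mean of 36 to 40 h and 149 (1.23%) at least 1.5-fold below, on the same scale, while the libraries at 42 h and 44 h held 39 and 80 above and 53 and 59 below. Summed FPKM went from 465541 at 36 h to 456791 at 46 h, the number of genes listed at 0 was between 5 and 20, and the correlation of the 46 h library with the other 5, over genes, was between 0.985 and 0.991. These properties were not tested as the source of any difference, and results are given with and without 46 h where it decides them.

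**Figure D1:**
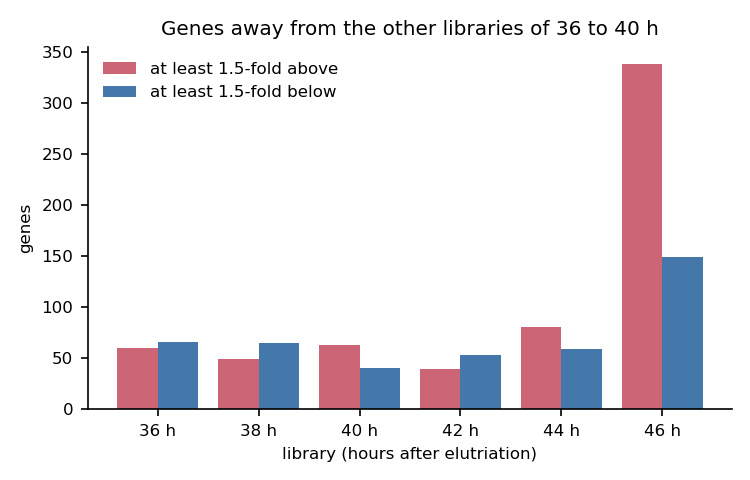
Bars count genes at least 1.5-fold above or below the mean of 36, 38 and 40 h in each library, with a library of that window set against the other libraries of it (y axis, genes; x axis, library). The 46 h library holds 338 genes above and 149 below, and no other library holds more than 80 above or 66 below.

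Genes of the K562 and erythroid identity were expressed in all 6 libraries. Summed FPKM over 18 erythroid and K562 genes was between 7402 and 7937 from 36 to 44 h and 6763 at 46 h. GATA1, the erythroid master regulator, was at 140, 133, 133, 134, 137 and 130 FPKM from 36 to 46 h, and its windows overlapped. HBG2, a fetal globin nearly identical to HBG1, so that reads may be split between the copies, was at 2610, 2386, 2456, 2512, 2412 and 1941 FPKM. The embryonic globin HBZ was at 325, 286, 303, 288, 255 and 208 FPKM and fell by 0.33 ± 0.06 (SE) log2 per 6 h over the 6 libraries (limma slope on time, adjusted p = 0.0422). TFRC, the transferrin receptor, was at 284, 278, 285, 268, 258 and 210 FPKM, lower in every later library than in every earlier one. In the whole list 0 of 18 genes were higher and 2 lower without overlap, where 11.1% and 11.4% of all genes were. Its median difference was -0.11, and -0.05 without 46 h. At 46 h 5 of 18 stood below every library of 0 to 40 h (12.1% of all genes). In this and every later comparison with 0 to 40 h, the libraries at 16 h and 18 h were left out. Of markers of other cell types, 4 of 10 fibroblast genes were in the table with summed FPKM between 131 and 140, 3 of 10 lymphoid genes with 44.6 to 56.0, 3 of 10 megakaryocytic genes with 60.1 to 76.5 and 2 of 10 myeloid genes with 36.8 to 48.9. The other markers are not in the table, which holds only genes at 1 FPKM or more in at least 12 libraries. In bulk RNA, fewer cells of a type and less of an RNA per cell cannot be told apart, here and in every result below.

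No gene passed the test between windows. With limma, 0 of 12155 genes (0%) had an adjusted p at or below 0.05, the smallest adjusted p was 0.356, and 1680 genes (13.8%) had an unadjusted p below 0.05. The windows did not overlap for 1353 genes (11.1%) that were higher at the culture end and 1380 (11.4%) that were lower, and without the 46 h library for 1736 (14.3%) and 1880 (15.5%). The median difference over all genes was 0.00, and 7 genes were at least 2-fold higher and 14 at least 2-fold lower. A straight line on time through the same 6 libraries called 640 genes (limma, adjusted p at or below 0.05): 339 (2.79%) went up and 301 (2.48%) went down, with 3550 at an unadjusted p below 0.05. Upward calls were 53% of these, and 41.1% of 704 after median centring. Refits that left out 36, 38, 40, 44 or 46 h called 0 genes, as did the fit without the intensity trend in the variance, and the refit without 42 h called 720. The slope was planned only as an alternative setting of the window test, which itself called 0 genes. Below, "rose" and "fell" are used of genes called by slope. The slope is given in log2(FPKM + 1) per 6 h, the distance between the window centres.

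Genes of the integrated stress response had the highest median of the lists at the culture end. Of 31 genes tested in the list of this response and of serine synthesis, 31 had a higher mean in the later window, 12 were higher without overlap and 0 lower, against 11.1% and 11.4% of all genes. The median difference was 0.43, and 0.17 without the 46 h library, against 0.00 for all genes in both cases. The difference came late in the window: relative to the earlier window's mean, the list's median was 0.04 in the 42 h library, 0.33 in the next and 1.02 in the last. These are RNA levels, and whether the response itself was active, or why, was not tested. At 46 h 27 of 31 genes were at least 1.5-fold above the mean of 36 to 40 h, where 2.78% of all genes were, and 9 were so at 44 h. At 46 h 27 of 31 also stood above every library from 0 to 40 h, with the irregular 16 h and 18 h libraries left out, against 12.6% of all genes. The exceptions were ATF4, ATF3, CBS and XPOT. By slope 5 of 31 rose and 0 fell (2.79% and 2.48% of all genes).

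The regulators moved by different amounts. ATF4, the factor at the centre of the response, was at 91.1, 86.7, 87.7, 92.8, 126 and 145 FPKM from 36 to 46 h. All 3 later values lay above the 3 earlier ones, and ATF4 rose by 0.43 ± 0.10 log2 per 6 h (limma, adjusted p = 0.0493). It had been at 147 FPKM at 0 h, so its end level was within its earlier range. ATF3, a stress-induced repressor, was at 6.65, 5.52, 6.19, 7.81, 15.8 and 36.8 FPKM, rose by 1.37 ± 0.29 (adjusted p = 0.0458), and had been at 37.2 at 0 h. DDIT3, which encodes the factor CHOP, was at 19.2, 18.4, 16.6, 19.9, 31.3 and 54.9 FPKM. It was higher in each later library, 3.04-fold over the early mean at 46 h, with a slope at adjusted p = 0.0609. CEBPB and CEBPG, which pair with ATF4 on DNA, were at 42.1 and 34.5 FPKM at 46 h, 2.2-fold and 1.75-fold over their means at 36 to 40 h. JDP2, a further bZIP factor, went from between 1.78 and 1.96 FPKM to 2.15, 3.1 and 7.21. TRIB3, an ATF4 target that restrains the response, was at 30.6, 28.2, 27.5, 29, 30.7 and 53.7 FPKM, and its windows overlapped, with 46 h alone well above the rest.

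Genes that restrain growth and alter redox state held the largest differences. DDIT4, an inhibitor of mTORC1, was at 94.6, 92.7, 96.8, 112, 437 and 787 FPKM. It stood slightly above the earlier window at 42 h and far above it at 44 h and 46 h, where it was 8.31-fold over the early mean. Its window difference was 1.82 ± 0.61 (SE), 1.21 without 46 h, and it rose by 1.89 ± 0.38 log2 per 6 h (limma, adjusted p = 0.0432). With 16 h and 18 h left out, no library from 0 to 40 h had held more than 185 FPKM, reached at 0 h. SESN2, also an inhibitor of mTORC1, was at 13.6, 13.2, 14.1, 14.6, 25 and 57.4 FPKM. CHAC1, which degrades glutathione, was at 5.1, 3.92, 4.81, 5.04, 21 and 65.2 FPKM. Its value at 42 h lay inside the earlier window, so the windows overlapped, and its 46 h value was 14.1-fold over the early mean, with a slope at adjusted p = 0.0521.

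**Figure D2:**
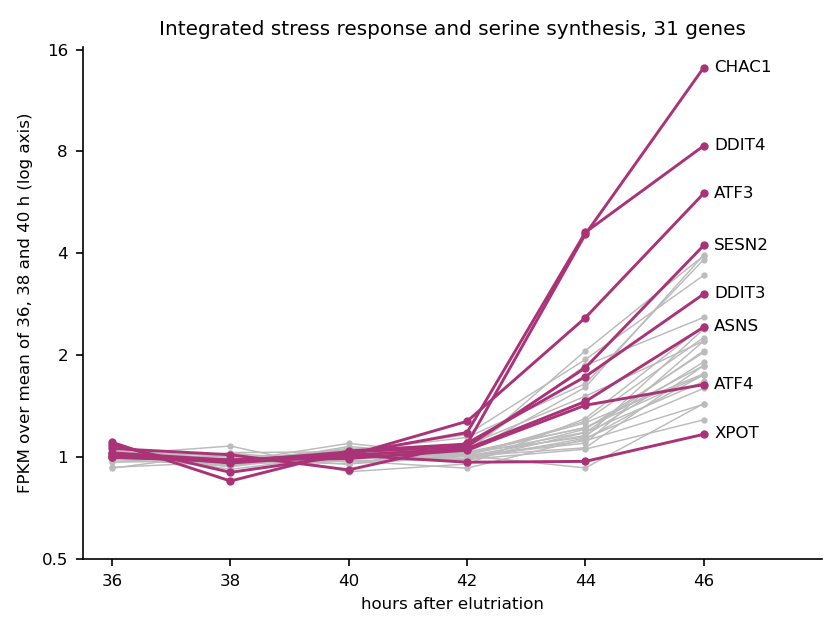
Lines show FPKM of the 31 genes of the integrated stress response and serine synthesis at 36 to 46 h, each over its own mean at 36, 38 and 40 h (log axis; 8 genes in colour and named). The genes lie close to 1 through 42 h and spread upward at 44 h and 46 h, from 1.17-fold for XPOT to 14.1-fold for CHAC1.

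Enzymes of amino acid synthesis were also higher at 46 h. ASNS, asparagine synthetase, was at 153, 149, 154, 161, 222 and 368 FPKM, higher in each later library than in any earlier one and 2.42-fold over the early mean at 46 h (slope, limma adjusted p = 0.0536). The serine pathway enzymes PHGDH and PSAT1 were 2.06-fold and 2.03-fold over their early means at 46 h, and PSPH, which ends the pathway, 1.44-fold. PHGDH was at 29.9, 26.7, 27.4, 27.4, 33.1 and 57.7 FPKM, so that its 42 h value lay within the earlier window. The folate enzymes of the mitochondrion that use serine, SHMT2, MTHFD2 and ALDH1L2, were 1.43-fold, 1.87-fold and 2.39-fold over theirs at 46 h. CTH, which makes cysteine from cystathionine, was at 13.4, 12.5, 14, 13.7, 21.4 and 52.6 FPKM, 3.96-fold over the early mean at 46 h, and its 42 h value again lay within the earlier window.

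Amino acid transporters are given next. SLC38A2, which takes up small neutral amino acids, was at 81.5, 79.4, 80.3, 84.1, 150 and 208 FPKM. It rose by 0.81 ± 0.18 log2 per 6 h (limma, adjusted p = 0.0487), and the windows did not overlap. SLC7A11, the cystine carrier, was at 8.76, 7.99, 8.83, 8.77, 17.6 and 33.6 FPKM, 3.94-fold over the early mean at 46 h. SLC7A5, which carries large neutral amino acids, was at 85.5, 80, 79.7, 75.8, 92.4 and 143 FPKM, with the lowest of its 6 values at 42 h. SLC3A2, the chain that both carriers need, was at 149, 152, 143, 150, 187 and 261 FPKM. Among the secreted products, STC2 (stanniocalcin 2) was at 5.25, 5.84, 5.87, 6.6, 11 and 19.5 FPKM and rose by 0.95 ± 0.18 (limma, adjusted p = 0.04). GDF15 and INHBE, stress-induced hormones of the TGF-beta family outside the list, were at 60.3 and 15.9 FPKM at 46 h, 4.48-fold and 4.25-fold over their early means. GDF15, chosen after its values were seen, rose by 1.29 ± 0.24 (limma, adjusted p = 0.04).

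Promoters of the stress response list held a short sequence more often than promoters at large. RefSeq promoter windows (GRCh38.p14, from 250 bases before to 50 after the start) were found for 26 of the genes by symbol, and TGATGNAA, the core of the C/EBP-ATF composite element, was searched on both strands. It occurred in 9 of 26 genes (34.6%), against 217 of 9004 genes of the table (2.41%) and 1270 of 35116 windows (3.62%). The 9 genes were ATF3, ASNS, CHAC1, SLC3A2, SLC7A1, SLC1A5, SLC1A4, CEBPG and JDP2. The share depends on which genes are listed and not on their values in the 6 libraries. A match is a description and neither a site shown to be bound nor a cause. For 3 of them the 150 bases before the start are shown 5′ to 3′ on the gene's strand, with the match in capitals, so that its place in the promoter can be read beside the values above.
ASNS, chr7:97872409-97872558, minus strand: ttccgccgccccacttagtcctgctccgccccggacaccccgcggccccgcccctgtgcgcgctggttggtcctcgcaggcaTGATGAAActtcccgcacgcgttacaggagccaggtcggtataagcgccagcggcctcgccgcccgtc
CEBPG, chr19:33373963-33374112, plus strand: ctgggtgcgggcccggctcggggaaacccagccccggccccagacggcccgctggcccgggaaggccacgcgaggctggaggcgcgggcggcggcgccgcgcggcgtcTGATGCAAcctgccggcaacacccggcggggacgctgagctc
JDP2, chr14:75427872-75428021, plus strand: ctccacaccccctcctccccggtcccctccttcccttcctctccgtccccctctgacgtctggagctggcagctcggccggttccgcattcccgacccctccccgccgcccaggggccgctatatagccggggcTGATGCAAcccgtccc

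Charging enzymes and cell death genes near the same response were higher in part. Of 20 aminoacyl-tRNA synthetases, which load amino acids on tRNA, 8 were higher without overlap and 2 lower (11.1% and 11.4% of all genes). Their median difference was 0.08, and 0.02 without 46 h, and at 46 h 10 of 20 stood above every library of 0 to 40 h (12.6% of all genes). AARS1 was at 100, 103, 104, 114, 125 and 166 FPKM and rose by 0.39 ± 0.07 (limma, adjusted p = 0.0411). CARS1, WARS1 and GARS1 were 1.79-fold, 1.67-fold and 1.61-fold over their early means at 46 h. In the BCL2 family 3 of 13 genes were higher without overlap and 0 lower, beside the same shares of all genes, with a median of 0.11, and 0.05 without 46 h. PMAIP1, the death activator NOXA, was at 15.3, 15, 14.6, 16.7, 20.8 and 28.6 FPKM and rose by 0.50 ± 0.11 (limma, adjusted p = 0.0492). BBC3, the activator PUMA, was at 7.05, 6.35, 5.74, 6.48, 12.4 and 15.6 FPKM, and its 42 h value lay within the earlier window.

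Replication-dependent histone genes were higher across the later window and, unlike the stress genes, already at 42 h. Of 26 tested, 15 were higher without overlap and 0 lower (1353 of all 12155 genes, or 11.1%, were higher), 13 rose (2.79% of all genes) and 0 fell, and the median difference was 0.30, or 0.20 without 46 h. The median of the list was 0.14 at 42 h, 0.28 at 44 h and 0.53 at 46 h. At the matching first-day hours (12 and 14 h, then 20 and 22 h) its median change was 0.23. There it was 0.04 for the stress response list and 0.02 for all genes. The median second-day minus first-day change of the histone list was 0.13. H3C10, a histone H3 gene, was at 24.6, 26.4, 25.9, 30.6, 34.8 and 43.2 FPKM and rose by 0.46 ± 0.06 (limma, adjusted p = 0.0332). H1-2, a linker histone gene, was at 221, 230, 224, 239, 272 and 330 FPKM and rose by 0.32 ± 0.06 (adjusted p = 0.0432). H2AC6 was at 68.8, 73.1, 75.3, 80.6, 88.7 and 103 FPKM and rose by 0.33 ± 0.04 (adjusted p = 0.0332). In all 3 genes each later library lay above each earlier one. At 46 h 5 of 26 histone genes stood above every library of 0 to 40 h, against 12.6% of all genes. H4C4 was at 1.56, 1.41, 1.55, 0.728, 0.989 and 1.82 FPKM, so the family did not move as one. Histone genes are near copies of one another, so reads may be split between them, and their RNA mostly lacks a poly(A) tail, while the library's RNA selection was not given in the sources used here.

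DNA synthesis genes outside the histones had smaller medians. Of 30 S phase genes 8 were higher without overlap and 1 lower (11.1% and 11.4% of all genes), 5 rose (2.79% of all genes), with RFC2, RFC4 and POLD3 among them, and the median was 0.06, or 0.04 without 46 h. Of 27 G1/S and E2F target genes 5 were higher and 3 lower and 4 rose, beside the same shares, with a median of 0.03. MCM5, a subunit of the replicative helicase, was at 69.4, 66.2, 71.4, 77.2, 72.1 and 82 FPKM, all later values above the earlier ones, while MCM2, of the same complex, was at 51.6, 50.1, 53.2, 52.5, 53.1 and 61.7 and overlapped. CCNE2, cyclin E2 of the G1/S step, was at 19.3, 19, 20.6, 20.6, 19.6 and 19.1 FPKM, a difference of 0.01 ± 0.05.

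Early response and signalling genes were higher in part. Of 17 immediate early genes 7 were higher without overlap and 1 lower (11.1% and 11.4% of all genes), with a median of 0.19, and 0.11 without 46 h. Of 16 feedback genes of cytokine signalling 9 were higher and 0 lower, with a median of 0.12, and 0.09 without 46 h. At 46 h 0 of 17 immediate early genes stood above every library of 0 to 40 h and 3 below. Of the 16 feedback genes 6 stood above and 1 below (12.6% and 12.1% of all genes). JUND, an AP-1 subunit, was at 56.3, 55, 58.1, 68.6, 72.6 and 73.6 FPKM, with a step between 40 h and 42 h, and rose by 0.29 ± 0.05 (limma, adjusted p = 0.0342). JUN was at 4, 3.76, 4, 4.68, 5.09 and 5.92 FPKM and rose by 0.31 ± 0.07 (adjusted p = 0.0465). FOSL1, which also encodes an AP-1 subunit, went the other way, at 11.5, 11.3, 10.1, 9.67, 8.4 and 6.72 FPKM, and fell by 0.40 ± 0.06 (adjusted p = 0.034). EGR1, a zinc finger factor induced by growth signals, was at 7.83, 6.62, 8.09, 8.24, 14.3 and 13.7 FPKM, with the step between 42 h and 44 h. PIM1, a kinase induced by STAT5, was at 170, 175, 174, 191, 256 and 337 FPKM and rose by 0.57 ± 0.11 (limma, adjusted p = 0.04). SPRY4, a feedback inhibitor of the ERK pathway, was at 5.23, 5.48, 5.93, 6.19, 7.42 and 8.39 FPKM and rose by 0.36 ± 0.05 (adjusted p = 0.034). PIM1 stood 1.95-fold over its early mean at 46 h, the highest fold of the signalling genes given here after CD69. CD69, an early activation antigen of blood cells, was at 6.29, 6.7, 6.18, 7.79, 14.1 and 16.1 FPKM and rose by 0.80 ± 0.15 (limma, adjusted p = 0.04). EGR1, JUN and CD69 had been at 242, 63 and 30.3 FPKM at 0 h, above their values at 46 h. The highest PIM1 value of 0 to 40 h was 225 FPKM, at 10 h.

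Arrestin-type and related genes known to respond to glucose were mixed. Of 7 in the list 2 were higher without overlap and 0 lower (11.1% and 11.4% of all genes), the median difference was 0.10, and 3 of 7 were at least 1.5-fold above the early mean at 46 h. TXNIP, an arrestin that limits glucose uptake, was at 76.8, 67.9, 67, 71.4, 110 and 170 FPKM. Its windows overlapped at 42 h, its 46 h value was 2.4-fold over the early mean, and its slope had an adjusted p of 0.0739 (limma). ARRDC4, its relative, was at 6.91, 6.63, 7.03, 7.24, 7.55 and 13.8 FPKM. MLXIPL, which encodes the sugar-responsive factor ChREBP, was at 2.07, 2.03, 2.26, 2.5, 3.44 and 4.68 FPKM and rose by 0.53 ± 0.10 (limma, adjusted p = 0.04). Against the same shares of all genes, of 22 glycolytic enzymes 1 was higher without overlap and 6 lower, with a median of -0.03. Of 13 hypoxia targets outside glycolysis 5 were higher and 1 lower, with a median of 0.11.

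**Figure D3:**
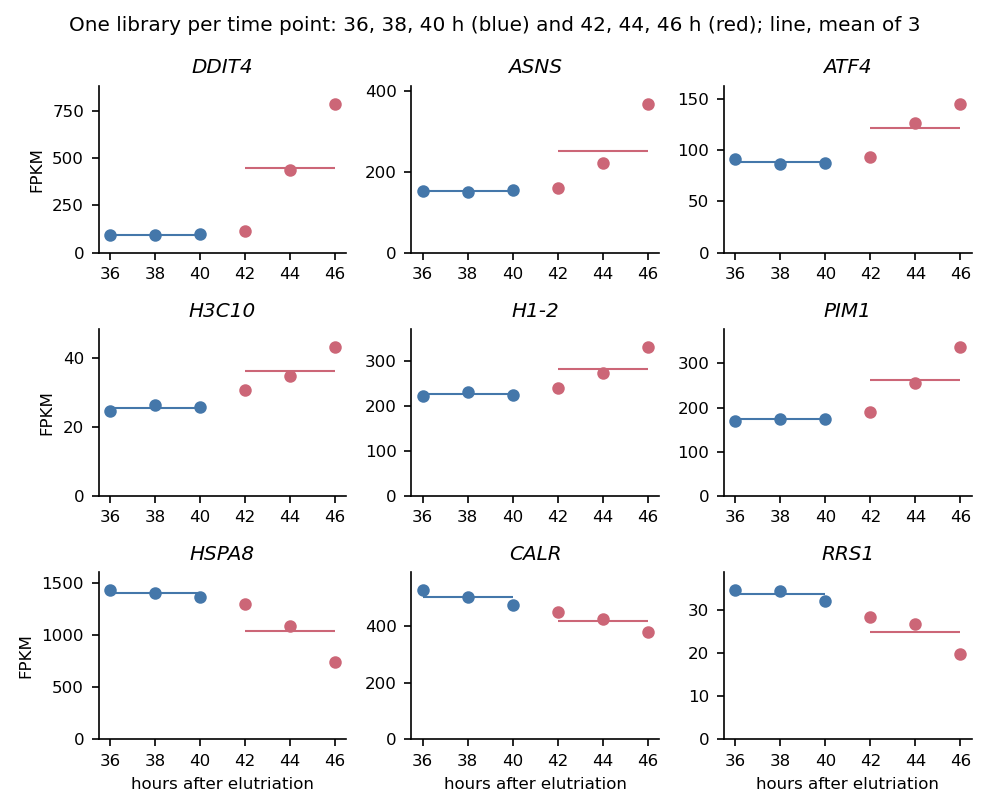
Points are FPKM in single libraries at 36, 38 and 40 h (blue) and 42, 44 and 46 h (red) for 9 genes, with a line at each window's mean; every y axis starts at 0. DDIT4, ASNS and ATF4 go up at 44 h and 46 h, H3C10, H1-2 and PIM1 are higher in each later library, and HSPA8, CALR and RRS1 are lower in each later library.

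Nucleolar genes were lower at the culture end. Of 33 ribosome assembly factors 19 were lower without overlap and 0 higher, against 11.4% and 11.1% of all genes. By slope 8 fell (2.48% of all genes) and 0 rose, the median difference was -0.13, and it was -0.10 without 46 h. At 46 h 19 of 33 stood below every library of 0 to 40 h, where 12.1% of all genes did. RRS1, needed for the large subunit, was at 34.5, 34.3, 32.1, 28.3, 26.6 and 19.8 FPKM and fell by 0.44 ± 0.07 (limma, adjusted p = 0.0342). NOP16, a nucleolar protein of the same pathway, was at 107, 95, 96.8, 90.2, 82.5 and 63.6 FPKM and fell by 0.38 ± 0.06 (adjusted p = 0.0381). NCL, nucleolin, was at 738, 732, 727, 713, 657 and 637 FPKM and fell by 0.13 ± 0.03 (adjusted p = 0.0432). In each of these genes every later library was below every earlier one. A decrease was also present at the first-day hours, where the list's median change was -0.08, against 0.02 for all genes. RRS1 and NOP16 changed by -0.29 and -0.36 there. The median second-day minus first-day change of the list was -0.04.

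Genes that host small nucleolar RNAs in their introns were split. Of 16 in the list 4 fell and 1 rose by slope (2.48% and 2.79% of all genes). SNHG12 was at 87.7, 90.3, 83, 79.4, 66 and 47.1 FPKM and fell by 0.50 ± 0.10 (limma, adjusted p = 0.0422), while SNHG3 was at 177, 180, 188, 193, 207 and 206 FPKM and rose by 0.15 ± 0.02 (adjusted p = 0.0345). The list's median was -0.06, and 0.00 without 46 h. The products of ribosome assembly differed less than its factors. Of 79 cytosolic ribosomal protein genes 0 were higher and 5 lower without overlap (11.1% and 11.4% of all genes), with a median of -0.03. MYC, which drives both sets in many cells, was at 126, 122, 118, 124, 138 and 145 FPKM, and its windows overlapped. A link between MYC and these sets was not tested. MYCL, a MYC family member, was at 4.15, 4.77, 4.96, 5.35, 6.32 and 8.92 FPKM and rose by 0.50 ± 0.08 (limma, adjusted p = 0.0368).

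Cytosolic chaperones of the heat shock response were lower, mainly at 46 h. Of 22 genes 5 were lower without overlap and 0 higher (11.4% and 11.1% of all genes), and 3 fell by slope (2.48% of all genes). The median difference was -0.11, and -0.05 without 46 h. By library the median stood at 0.01 at 42 h, -0.09 at 44 h and -0.25 at 46 h. At the first-day hours the list's median change was -0.09, and the median second-day minus first-day change was -0.08. HSPA8, the constitutive HSP70, was at 1426, 1402, 1361, 1297, 1080 and 742 FPKM, lower in each library than in the one before, and fell by 0.51 ± 0.11 (limma, adjusted p = 0.0442). The inducible HSP70 genes HSPA1A and HSPA1B are nearly identical, so reads may be split between them. HSPA1A was at 57.6, 53.7, 54.1, 57.4, 43.3 and 17 FPKM and HSPA1B at 56.1, 49.6, 51.3, 53.6, 35.7 and 15.5, 3.24-fold and 3.38-fold below their early means at 46 h, with overlap at 42 h and slopes at adjusted p = 0.0936 and 0.0686 (limma). HSF1, the factor that induces them, was at 41.6, 40, 39.1, 42, 40.3 and 38.3 FPKM, with windows that overlapped. At 46 h 10 of 22 chaperone genes stood below every library of 0 to 40 h, where 12.1% of all genes did.

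Genes of the endoplasmic reticulum chaperones and the unfolded protein response were mixed, with more lower than higher. Of 21 genes 9 were lower without overlap and 2 higher (11.4% and 11.1% of all genes), and by slope 9 fell and 2 rose (2.48% and 2.79% of all genes). The median was -0.10, and it was also -0.10 at the first-day hours, with a median second-day minus first-day change of 0.01. CALR, the calcium-binding chaperone calreticulin, was at 526, 503, 475, 449, 425 and 379 FPKM and fell by 0.27 ± 0.02 (limma, adjusted p = 0.0217). HSP90B1, the HSP90 of this compartment, was at 400, 386, 363, 343, 323 and 284 FPKM and fell by 0.28 ± 0.03 (adjusted p = 0.0224). HSPA5, the HSP70 of this compartment, was at 138, 126, 110, 105, 106 and 103 FPKM, most of its drop came before 42 h, and it fell by 0.25 ± 0.04 (adjusted p = 0.0391). HERPUD1, which acts in degradation of misfolded proteins, was at 26.3, 23.2, 22.9, 24.6, 46.5 and 60.5 FPKM. It was 2.5-fold over the early mean at 46 h, its windows overlapped at 42 h, and its slope had an adjusted p of 0.0644 (limma). XBP1, a transcription factor of the response, was at 63.5, 56.2, 55.1, 54.8, 63.6 and 75.1 FPKM. EDEM1, another degradation gene, was at 10.6, 11.4, 11, 12.4, 13.2 and 14.6 FPKM and rose by 0.25 log2 per 6 h (limma, adjusted p = 0.04).

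Other genes with large differences stood outside the lists. FUT1, a fucosyltransferase of blood group antigens, was at 4.46, 4.61, 5.23, 6.13, 8.82 and 19.2 FPKM and rose by 1.03 ± 0.19 (limma, adjusted p = 0.04). IL23A, a subunit of interleukin 23, was at 3.25, 4.55, 4.36, 5.23, 6.31 and 11.5 FPKM and rose by 0.79 ± 0.13 (adjusted p = 0.0371). TUBE1, epsilon tubulin of the centriole, was at 18, 16.9, 18.2, 19, 26.5 and 44.4 FPKM (slope, adjusted p = 0.0523). In all 3 the 46 h library was the highest by a wide margin. MIR223HG, a long RNA that hosts a myeloid microRNA, was at 43, 46.2, 49.2, 52.2, 75.1 and 104 FPKM and rose by 0.72 ± 0.11 (limma, adjusted p = 0.034), climbing in each library. MIR223HG and SNHG12 are annotated as antisense, and without strand their reads and those of overlapping genes cannot be told apart. MIRLET7D and the pseudogene ALG1L13P, whose reads may belong to longer transcripts or related copies, were 1.71-fold and 2.82-fold over their early means at 46 h.

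Several of the largest decreases among genes averaging 5 FPKM or more without overlap were also outside the lists. NEFH, a neurofilament gene, was at 22.1, 19.5, 18.4, 16.7, 13.2 and 10.1 FPKM, lower in each library than in the one before, and fell by 0.60 ± 0.07 (limma, adjusted p = 0.0319). EIF5, which acts with eIF2 in start codon choice, was at 198, 204, 199, 189, 140 and 126 FPKM, with its drop between 42 h and 44 h, and fell by 0.43 ± 0.09 (adjusted p = 0.0432). PPRC1, a coactivator of mitochondrial gene expression, was at 25.4, 24.7, 23.3, 22.8, 19.6 and 13.9 FPKM and fell by 0.44 ± 0.09 (limma, adjusted p = 0.0437). PLD6, of the mitochondrial surface, CSKMT, a mitochondrial methyltransferase, and the zinc finger genes ZNF778 and ZNF35 fell by 0.48, 0.47, 0.46 and 0.40 (adjusted p between 0.0368 and 0.0477). SNORD83A, BSCL2 and TWF1 were lower without overlap and were not called by slope.

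Mitotic genes were lower by small amounts across the 6 libraries. Of 63 G2/M and mitosis genes 29 were lower without overlap and 1 higher, against 11.4% and 11.1% of all genes, 11 fell by slope (2.48% of all genes) and 0 rose, and the median difference was -0.11. Without the 46 h library 37 were lower (15.5% of all genes) and the median was -0.09. The medians at 42, 44 and 46 h were -0.10, -0.09 and -0.11, so the list's median, unlike that of the stress genes, differed little from 42 h on. Summed FPKM of the list was 3305, 3312, 3157, 3060, 3021 and 3004 from 36 to 46 h, so part of its drop came before 42 h. At 46 h 0 of 63 were below every library of 0 to 40 h, against 12.1% of all genes. CCNB1, cyclin B1, was at 200, 195, 180, 166, 157 and 138 FPKM and fell by 0.32 ± 0.03 (limma, adjusted p = 0.0217). PLK1, the kinase that starts many steps of mitosis, was at 80.2, 75.2, 68.6, 60.9, 55.4 and 54.7 FPKM and fell by 0.36 ± 0.03 (adjusted p = 0.0217). CDC20, an activator of the anaphase-promoting complex, was at 68, 66.7, 61.4, 56.9, 48.3 and 42.4 FPKM and fell by 0.41 ± 0.04 (adjusted p = 0.0283). In these genes every library was lower than the one before. CDK1, the kinase that cyclin B1 activates, was at 193, 193, 189, 197, 198 and 200 FPKM and was the 1 member higher without overlap. AURKB, the centromere kinase, was at 45, 45.2, 41.2, 43.1, 43.7 and 45.8 FPKM, a difference of 0.01 ± 0.05. The proliferation markers MKI67 and TOP2A were between 26.7 and 32.3 and between 121 and 132 FPKM, and both overlapped between windows.

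The promoters of the mitotic list often hold TTTGAA, the cell-cycle genes homology region. It was found, on either strand, in 37 of 54 genes with a window (68.5%), against 1181 of 9004 genes of the table (13.1%) and 5324 of 35116 windows (15.2%). As for the stress response list, the share depends on which genes are listed and not on their values. TGATGNAA was in 2 of these 54 (3.7%). TTTGAA was in 3 of the 26 stress response genes (11.5%) and in 8 of 24 histone genes (33.3%), and TGATGNAA in 0 of those 24, which says only that these letters are not in the windows searched. The 150 bases before the start are shown for 3 genes that fell, with TTTGAA in capitals. CCNF, the third, encodes cyclin F and was at 27.1, 26.8, 24.9, 24.7, 21.9 and 19 FPKM.
CDC20, chr1:43358831-43358980, plus strand: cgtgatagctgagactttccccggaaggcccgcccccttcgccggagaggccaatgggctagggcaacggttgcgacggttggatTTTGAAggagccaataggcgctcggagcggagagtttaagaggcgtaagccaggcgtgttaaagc
PLK1, chr16:23678739-23678888, plus strand: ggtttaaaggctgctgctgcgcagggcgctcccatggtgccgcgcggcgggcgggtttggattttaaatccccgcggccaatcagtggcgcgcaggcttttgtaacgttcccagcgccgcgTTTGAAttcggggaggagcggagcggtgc
CCNF, chr16:2429297-2429446, plus strand: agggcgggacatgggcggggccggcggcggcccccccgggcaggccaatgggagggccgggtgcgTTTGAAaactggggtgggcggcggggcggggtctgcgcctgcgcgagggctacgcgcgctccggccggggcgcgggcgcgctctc

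The same hours of the first day gave the opposite course for mitotic genes. The change from 36, 38 and 40 h to 42, 44 and 46 h was set against that at hours 24 h before. These were 12 and 14 h, then 20 and 22 h, with 16 h and 18 h left out as irregular. The hours 40 h and 42 h thus had no counterpart, and the first-day windows lay further apart than the second-day ones. Of 12204 genes, 14 (0.115%) had a higher and 40 (0.328%) a lower change on the second day (limma interaction, adjusted p at or below 0.05), and 20 of the 40 were among the mitotic list. With 16 h and 18 h included, 0 genes were called (248 at an unadjusted p below 0.05), so every call between the days rests on leaving them out. The median change of the mitotic list was 0.36 on the first day and -0.11 on the second. CCNB1 went from 133 and 153 FPKM in the early hours of that day to 235 and 237 in its late hours, and the second-day minus the first-day change was -1.04 ± 0.12 (limma, adjusted p = 0.016). KIF20A, a kinesin of cytokinesis, was at 11.2 and 13.2, then 28.4 and 29.5 FPKM on the first day and at 24, 22.5, 21, 17.3, 18.9 and 17 on the second, a difference of -1.51 ± 0.12 (limma, adjusted p = 0.00267). PLK1 was at 47.7 and 61.5, then 94.4 and 89.5 FPKM on the first day (difference -1.13 ± 0.15, adjusted p = 0.016), and CDC20 at 47 and 54.9, then 78.4 and 78.3 (-1.03 ± 0.16, adjusted p = 0.0271). Both were higher late than early on the first day and lower late than early on the second. AURKA, the spindle pole kinase, was at 39.1 and 44.3, then 70.9 and 72.6 FPKM on the first day (-1.03 ± 0.11, adjusted p = 0.0126). By the second day all 5 genes started from levels between their early and late levels of the first day.

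MYC differed the other way. Its first-day values were 177 and 172 FPKM early and 119 and 112 late, against 118 to 145 on the second day, a difference of 0.74 ± 0.09 (limma, adjusted p = 0.016). SOCS3, a feedback inhibitor of STAT signalling, was at 12.3 and 13.2, then 8.17 and 6.52 FPKM on the first day and at 11.9, 11.7, 12.7, 13.7, 15.9 and 13.6 on the second, a difference of 0.96 ± 0.14 (adjusted p = 0.0264). The number of calls between the days changed with the libraries. Refits called 1 gene without 36, 38 or 44 h, 5 without 40 h, 36 without 46 h and 69 without 42 h, and 31 without 22 h, a library with irregular values (GP1BB at 0.00107 FPKM).

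**Figure D4:**
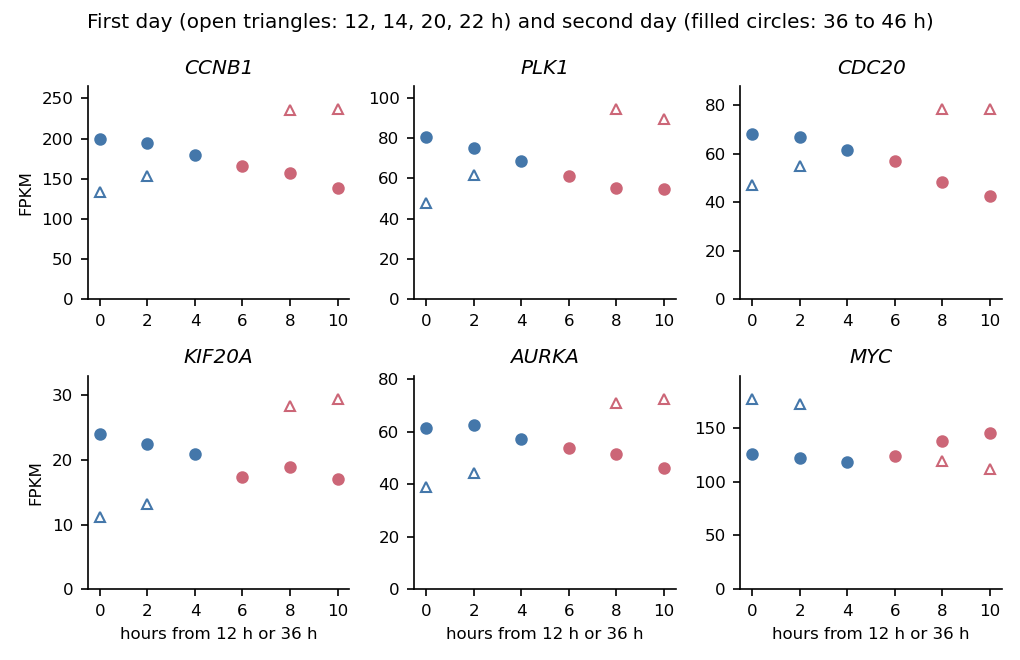
FPKM of 6 genes against hours from 12 h (open triangles: 12, 14, 20 and 22 h) or from 36 h (filled circles: 36 to 46 h), with early hours blue and late hours red; every y axis starts at 0. The 5 mitotic genes are higher late than early on the first day and lower late than early on the second, and MYC is lower late on the first day only.

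Cholesterol synthesis genes were higher in part. Of 25 genes 7 were higher without overlap and 1 lower (11.1% and 11.4% of all genes), and 11 were higher without 46 h (14.3% of all genes). By slope 6 rose (2.79% of all genes), with a median of 0.06 in the window comparison and 0.28 at the first-day hours. MSMO1, a sterol demethylase, was at 45.6, 54.2, 61.3, 64.4, 64.6 and 70.4 FPKM and rose by 0.33 ± 0.05 (limma, adjusted p = 0.034). HMGCS1, which starts the pathway, was at 109, 118, 127, 139, 141 and 133 FPKM, highest at 44 h.

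The remaining lists are given beside the 11.1% of all genes that were higher and the 11.4% that were lower without overlap. Of 31 proteasome subunits 0 were higher and 11 lower, with a median of -0.05. Of 36 lysosome and autophagy genes 7 were higher and 2 lower, with a median of 0.04, and of 11 interferon-stimulated genes 4 were higher and 1 lower, with a median of 0.09. Of 14 CDK inhibitors and pocket proteins 3 were higher and 1 lower, with a median of 0.08. Heme synthesis (14 genes), iron uptake and storage (11), thiol antioxidants (24), purine synthesis (21), the nuclear-encoded respiratory chain (38) and the circadian clock (10) had medians of -0.04, 0.01, -0.02, -0.02, -0.03 and 0.01, against 0.00 for all genes. The 5 mitochondrially encoded transcripts in the table had a median of -0.15, with 0 of 5 above 0 and 1 lower without overlap, and 9 polyamine genes had a median of -0.05. MALAT1, a nuclear-retained long RNA, was at 679, 778, 743, 735, 830 and 1022 FPKM, highest at 46 h, while its list of 10 nuclear RNAs had a median of 0.00.

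**Figure D5:**
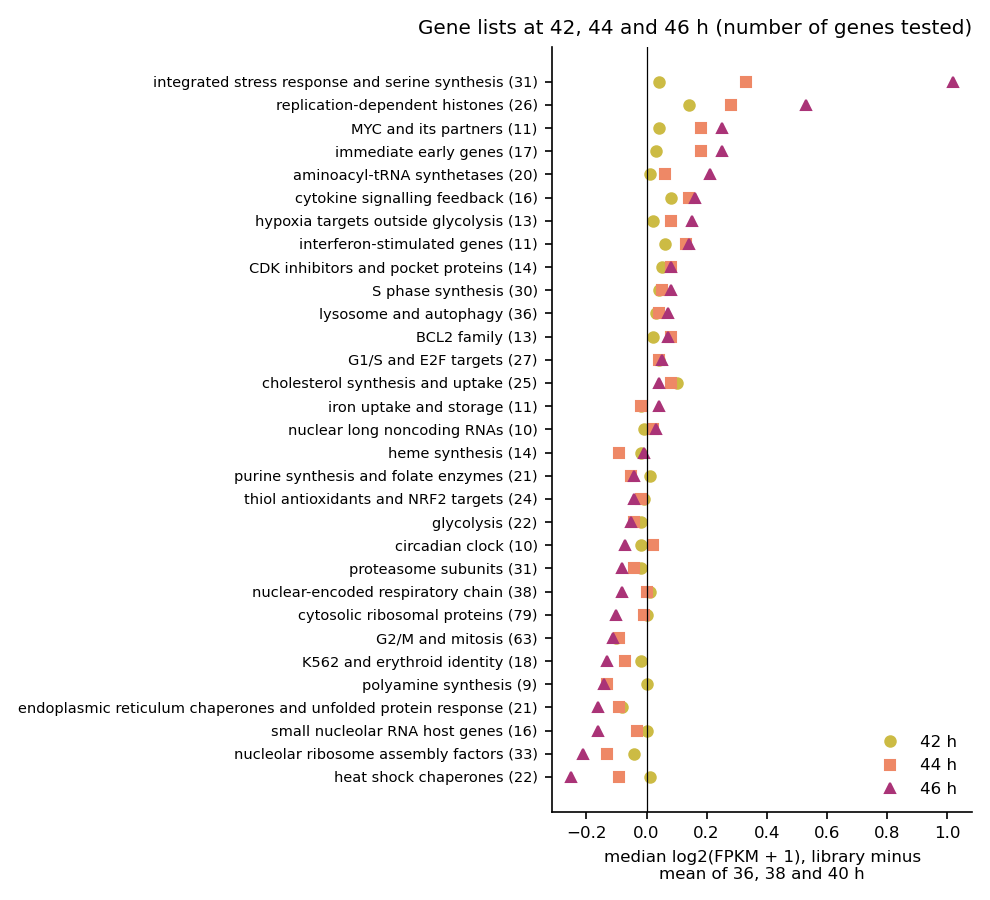
Points give the median log2(FPKM + 1) of each gene list at 42 h (circle), 44 h (square) and 46 h (triangle) minus the mean of 36, 38 and 40 h, with the number of genes tested in brackets. The integrated stress response stands at 0.04, 0.33 and 1.02 and the histones at 0.14, 0.28 and 0.53, while the heat shock chaperones stand at 0.01, -0.09 and -0.25.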

How the data were processed

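RNA was sequenced from 24 K562 samples, 1 per time point, of which 6 (36 to 46 h) were compared and 4 (12, 14, 20 and 22 h) served as first-day hours. The deposited table holds FPKM values, which the authors made with STAR, Cufflinks and Cuffnorm on GRCh37, per the submitters' processing notes, with no versions. It holds 12285 genes, each at 1 FPKM or more in at least 12 libraries, so genes expressed at few times were not analysed here. Counts and depth are unknown, so no counting error can be given, and strand use in counting is not given in the sources used here. A second deposited table holds a score for each gene in each library, given by the authors as a cleaned form of the first. Each column holds the same sorted values, from -2.86 to 3.59, and it served only as an alternative. Columns were matched to samples by their labels, and no column was left unmatched.

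Differences were fitted on log2(FPKM + 1) for the 12155 genes that averaged 1 FPKM or more over the libraries fitted (12204 for both days) by limma 3.58.1 (R 4.3.3) with an intensity trend, two-sided, with Benjamini–Hochberg adjustment over all genes tested and calls at 0.05. The slope on time, planned as an alternative setting of the window test, and the interaction of days used the same model. Scripts were tested on simulated data. Named genes were the 15 largest rises and the 15 largest falls among genes with a symbol, an average of 5 FPKM or more and windows that do not overlap, in each list the 4 largest differences among those called, of which there were none, and a fixed list of cell cycle, stress, globin and growth genes. Other genes were named after their values were seen, and a few results are not reported here. The members and the 38 lists were chosen with earlier results of these data known. Gene types and GC content came from GENCODE 29 on GRCh38, and promoters from RefSeq (GRCh38.p14), matched by symbol. Names came from a separate gene name reference, with RefSeq synonyms for list symbols that it did not hold. Motifs were fixed by their letters. Alternatives covered the pseudocount, filter, scaling, GC content, the variance trend, the cleaned table and each library left out.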

Additional observations from a re-analysis of the deposited data

Results flagged for a closer look

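The change from middle to late hours differed between the days for 54 genes, tested as an interaction with limma. Of the G2/M and mitosis genes 20 were among these, all with a lower change on the second day. On the log2(FPKM + 1) scale, the second-day change minus the first-day change was -1.13 for PLK1, -1.04 for CCNB1, -1.03 for CDC20 and 0.74 for MYC. Each day holds 1 library per hour, and the first-day hours 16 h and 18 h were not used. Windows of 3 libraries were too small to test for single outlying libraries.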

How the results depend on the processing

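No paired analysis was possible because the labels carry no replicate numbers and each time point has 1 library. The window comparison called 0 genes in every setting except without 42 h, where it called 4, so the range over libraries left out was 0 to 4. The slope called 640 genes. It called 966 with a filter at 10 FPKM (425 up and 541 down, 44% up against 53%), 425 with quantile normalization, 0 without the intensity trend, 0 in the cleaned table, and 0 to 720 with 1 library left out, where the 720 came without 42 h and each other refit called 0. Median centring gave 704 (41.1% up). The settings tried on the slope, 42 h alone and the lists without 46 h were chosen after seeing the data. The day comparison called 54 genes, 0 with 16 h and 18 h included, 31 without 22 h, and 1 to 69 with 1 library left out. The cause of these changes was not tested. Of 1677 alternative values for named genes and lists, 1644 stayed on the same side, 6 moved, 27 passed the threshold only under the alternative and 0 reversed. Depth is unknown, so the limit it sets on single values cannot be given.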
